A study of Arabidopsis thaliana with 8 samples.

Results

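SnRK1 is the plant counterpart of yeast SNF1 and animal AMPK, a protein kinase that is active when sugar and energy are short and is restrained when sugar is plentiful. It works as a complex of a catalytic alpha subunit, a scaffolding beta subunit and a gamma-type subunit, and in Arabidopsis seedlings it is known for switching on genes of sugar starvation and slowing growth. The 6 genes described here encode such subunits. They are the catalytic subunits KIN10 (AT3G01090) and KIN11 (AT3G29160), the beta subunits AKINBETA1 (AT5G21170), AKINBETA2 (AT4G16360) and AKINBETA3 (AT2G28060), and SNF4 (AT1G09020), the plant-specific beta-gamma subunit. They were chosen by locus, from the names printed in the scanner output, among 25665 loci on the array. Each had 1 probe, and each probe was well above background on all 8 arrays, so all 6 were tested.

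The RNA came from whole seedlings of 2 genotypes, wild type Col-0 and the double mutant voz1 voz2, and was labelled with Cy3 and read on Agilent arrays with a single colour, 4 arrays for each genotype. The zinc-finger factors VOZ1 and VOZ2 bind DNA, interact with phytochrome B and promote flowering. All plants were untreated and 14 days old, and had grown at 22 °C on agar with diluted MS medium, with a day of 16 h and a night of 8 h. The alleles of the mutant, the hour of harvest and the number of plants per array are not given in the sources used here. The comparison sets the double mutant against its wild type at this one age. Nothing in the labels states that replicates came from separate cultures, so the spread behind each p-value is that of these samples and may be technical.

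Both targeted genes were lower on the arrays labelled mutant, with log2 fold changes of -5.74 for VOZ2 and -1.5004 for VOZ1 (limma adjusted p = 1.0e-04 and 0.0015). The share of probes well above background was 60.4% to 70.3% on the 8 arrays, no spot was saturated, and the 75th percentile of the processed signal ranged from 722 to 2415. Levels below are log2 processed signals minus that percentile of the same array, so 0 is the percentile itself. They compare arrays within a probe and not one probe with another. The arrays lay on 2 slides, each with 2 arrays of each genotype, replicates 1 and 3 on slide 1 and replicates 2 and 4 on slide 2. Of 24599 features tested, 20899 of them loci and the rest probes with no locus name, 1091 passed an adjusted p of 0.05. Markers of both root and shoot were measured, 12 and 10 in number, and all passed the filter. The mean level of the root markers ran from -3.37 to -1.26 on the wild type arrays and from -1.58 to -0.60 on the mutant arrays, with 11 of 12 above 0 in fold change and 1, WOX5, past the threshold at 0.69. For 7 shoot markers measured on every array it ran from 0.045 to 0.56 and from -0.24 to 0.24. Of the 10 shoot markers 5 had fold changes above 0 and 5 below, with a median of -0.035. Only STM passed, at -2.90, and it is among the 7 that were averaged. In RNA of whole seedlings, fewer cells of a type and less RNA per cell cannot be told apart.

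AKINBETA1 was lower in voz1 voz2, and it was the single subunit gene of 6 past the threshold. Over all features 4.44% passed, 2.72% upward and 1.72% downward. The beta subunits hold the catalytic and gamma-type subunits together and are known to influence where the complex acts in the cell and which substrates it meets. On the wild type arrays 1 to 4 the AKINBETA1 level was 1.65, 1.08, 1.88 and 2.25, and on the mutant arrays 1 to 4 it was 0.39, 0.0099, 0.38 and 0.95. Every mutant array lay below every wild type array, with mutant replicate 4 and wild type replicate 2 closest to each other. Over all features, 16.1% had genotypes that did not overlap in this way. The mean fell from 1.71 ± 0.49 to 0.43 ± 0.39 (SD, n = 4 each), a log2 fold change of -1.28 (SE 0.29, 95% interval -1.93 to -0.63, limma adjusted p = 0.046), which is a 2.43-fold lower signal. In absolute size, 94.6% of all features tested had a smaller fold change. The processed signal before scaling was 3970, 4683, 2655 and 6500 in wild type and 1473, 2432, 1682 and 4234 in the mutant, and on that scale the genotypes overlapped.

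The AKINBETA1 difference was of similar size on both slides, -1.38 on slide 1 against -1.18 on slide 2, neither of which passed alone with 2 arrays of each genotype (adjusted p = 0.105 and 0.352). Its adjusted p was 0.034 with slide as a block and 0.012 with a block for replicate number, and the call ended with median scaling (0.063), without the filter (0.087) and in the deposited values (0.2004). It missed the threshold (adjusted p 0.091 to 0.119) when any one of wild type arrays 1, 3 and 4 and mutant arrays 1, 2 and 3 was left out. It was kept without wild type replicate 2 (0.024) or mutant replicate 4 (0.046). The root markers, with 11 of 12 fold changes above 0, lay mostly in the opposite direction, and their part in this difference was not tested. Without wild type replicate 4, the array with the lowest root marker mean, the fold change of AKINBETA1 was -1.10.

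**Figure D1:**
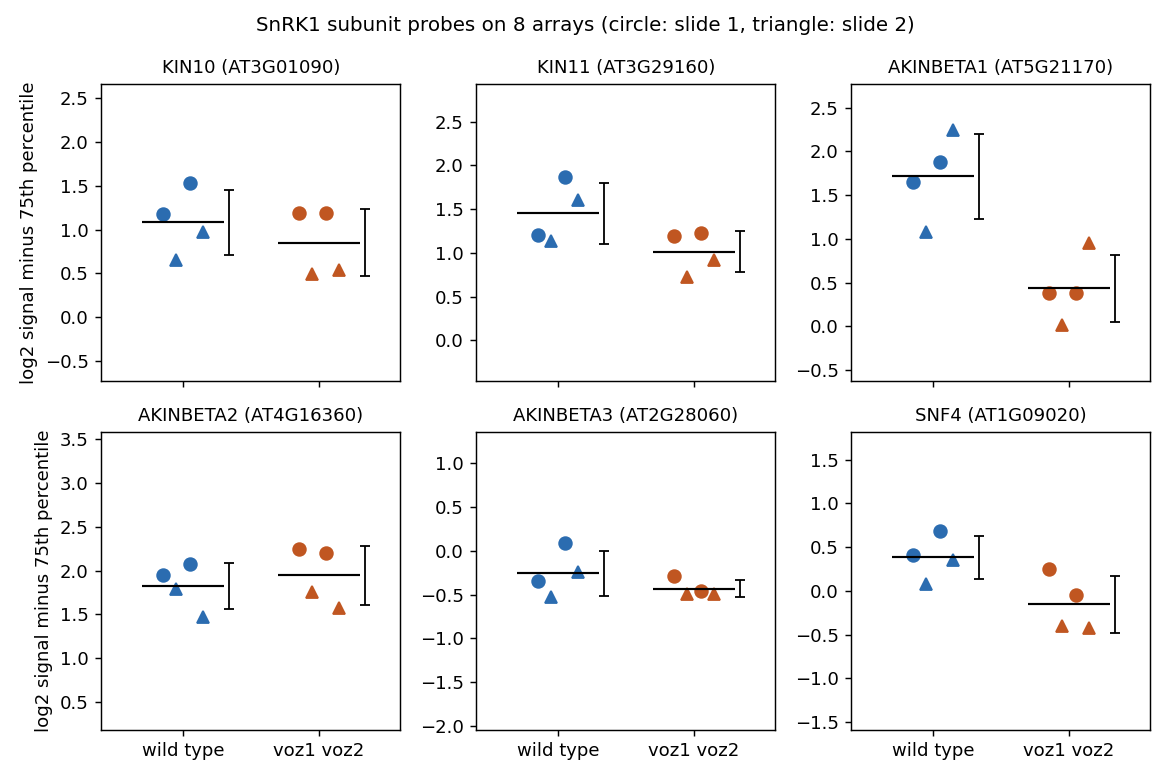
Levels of the 6 SnRK1 subunit genes on each array, as log2 processed signal minus the array's 75th percentile, with wild type in blue, voz1 voz2 in orange, circles for slide 1 and triangles for slide 2. Horizontal lines are genotype means and bars are 1 SD (n = 4 each). AKINBETA1 is the panel where the genotypes do not overlap, and in the mutant the points of the other 5 genes separate by slide.

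The other 2 beta subunit genes did not pass. AKINBETA2 was at 1.95, 1.79, 2.08 and 1.47 in wild type and at 2.25, 1.75, 2.204 and 1.58 in voz1 voz2. The genotypes overlapped fully, with a log2 fold change of 0.12 (SE 0.21, 95% interval -0.36 to 0.60, limma adjusted p = 0.764), whose sign was turned in the values as deposited (-0.21). AKINBETA3 encodes a short beta subunit found in plants that lacks the amino-terminal part and the carbohydrate-binding module of the other beta subunits. Its level was -0.35, -0.52, 0.091 and -0.23 in wild type and -0.29, -0.49, -0.46 and -0.49 in the mutant, again overlapping. The fold change was -0.18 (SE 0.16, 95% interval -0.54 to 0.19, adjusted p = 0.544), and at an SD of 0.097 its mutant arrays were the closest together of any subunit gene in either genotype. For both genes the 95% interval excludes a 2-fold change in either direction.

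On the same arrays AKINBETA1 minus either other beta subunit probe had a lower mean in voz1 voz2. A constant taken off an array does not alter such a difference. AKINBETA1 minus AKINBETA3 was 1.604 to 2.48 on the log2 scale in wild type and 0.50 to 1.44 in voz1 voz2, without overlap, and its mean moved by -1.10. AKINBETA1 minus AKINBETA2 was -0.70 to 0.77 in wild type and -1.86 to -0.63 in the mutant. These ranges overlapped slightly, and the mean moved by -1.40, with -1.59 on slide 1 and -1.22 on slide 2. AKINBETA2 minus AKINBETA3 moved by 0.30, with overlapping ranges. Separation was not limited to pairs of beta subunits. KIN10, AKINBETA2 and AKINBETA3, each minus SNF4, also had ranges without overlap, and their means moved by 0.31, 0.66 and 0.36. The share of all probe pairs that separate in this way was not computed. Each probe has its own response, so the differences show unequal change between probes and not the amount of one transcript against another.

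The catalytic subunit genes did not pass the threshold. KIN10, the kinase subunit best known as a driver of the starvation programme, was at 1.18, 0.65, 1.53 and 0.97 in wild type and at 1.19, 0.50, 1.19 and 0.54 in voz1 voz2. The spread followed the slide more than the genotype. In the mutant both slide 1 arrays were at 1.19 and both slide 2 arrays lay at 0.50 and 0.54, so the slide means differed by -0.67, and those of wild type by -0.54. The genotype fold change of KIN10 was -0.23 (SE 0.25, 95% interval -0.81 to 0.34, limma adjusted p = 0.624). KIN11, the other catalytic subunit, was at 1.203, 1.13, 1.87 and 1.61 in wild type and at 1.197, 0.73, 1.22 and 0.91 in the mutant. Its genotypes overlapped, with a fold change of -0.44 (SE 0.21, 95% interval -0.92 to 0.040, adjusted p = 0.248). Neither interval reaches a 2-fold change. KIN10 minus KIN11 on the same array had a mean of -0.37 ± 0.26 in wild type and -0.16 ± 0.17 in the mutant (SD, n = 4 each), and the ranges overlapped.

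SNF4, the beta-gamma subunit that combines a carbohydrate-binding module with the nucleotide-binding type of repeats found in gamma subunits, had the second largest difference of the 6. Its level was 0.42, 0.085, 0.68 and 0.36 in wild type and 0.25, -0.40, -0.041 and -0.42 in voz1 voz2. Mutant replicate 1 lay above wild type replicate 2, so the genotypes overlapped. The fold change was -0.54 (SE 0.20, 95% interval -1.002 to -0.074, 1.45-fold lower), with -0.44 on slide 1 and -0.63 on slide 2. The limma adjusted p was 0.158, past the unadjusted 0.05 that 23.6% of all features reached. Slide as a block gave 0.034, and a block for replicate number 0.060. The count of subunit genes lower was thus 2 of 6 with slide as a block, where 7.95% of all features were called lower and 8.13% higher.

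**Figure D2:**
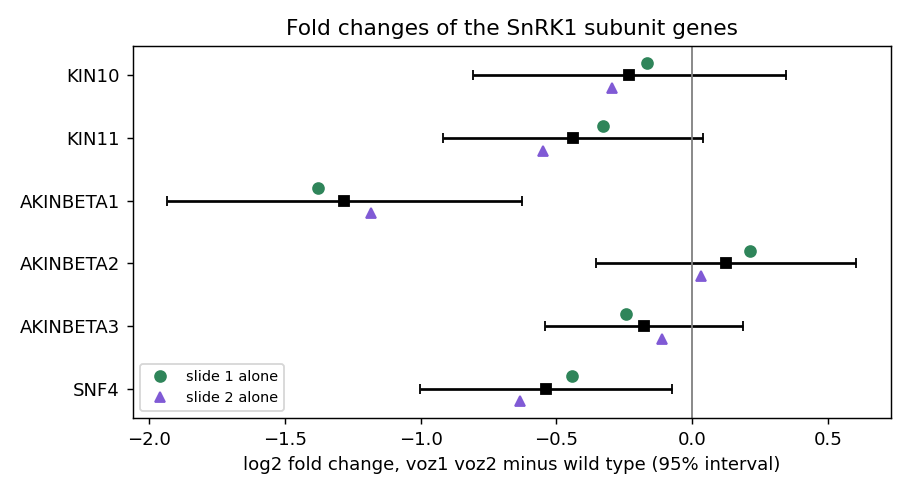
Log2 fold changes of the 6 subunit genes, voz1 voz2 minus wild type, with 95% intervals from limma over 8 arrays (squares), and the values of slide 1 alone (circles) and slide 2 alone (triangles). AKINBETA1 lies at -1.28, SNF4 at -0.54, and AKINBETA2 is the one gene above 0, at 0.12.

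Read together, 5 of the 6 subunit genes had fold changes below 0, with a median of -0.34, while 12984 of all 24599 features did so and their median was -0.030. The median of the 6 was -0.45 with median scaling and -0.67 in the values as deposited, where the median of all features was -0.15 and -0.37. The subunit genes other than AKINBETA1 were lower on slide 2 than on slide 1 in both genotypes, by 0.12 to 0.67 (slide differences between -0.67 and -0.12). AKINBETA1 differed between slides by -0.099 in wild type and 0.095 in the mutant.

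Among 20688 other loci with a value on every array, the pattern over the 8 arrays most like that of AKINBETA1 belonged to AT1G28260 and to LCL1, also called REVEILLE 4, a MYB-like factor of the circadian clock, with Pearson's r of 0.995 and 0.992 as the measure of likeness. AT1G28260 fell by 1.01 (log2 fold change -1.01, limma adjusted p = 0.039), and LCL1 was at -0.54 (adjusted p = 0.086). For KIN10 the closest were AT1G19110 and AT2G32730 (r 0.995 and 0.994), and for KIN11 the tetraspanin gene TET10 and AT1G74250 (both 0.987). AKINBETA2 was closest to AGD8 and AT1G17270 (0.987 and 0.986), and AKINBETA3 to the kinase gene WNK1 and the potassium transporter gene TRH1 (0.994 and 0.984). SNF4 was closest to AT5G10020, whose other name is sucrose-induced receptor kinase 1, and to the dynamin gene DL3 (0.994 and 0.993). These values are the highest of many, the points share slide and scaling, and none of these genes but AT1G28260 passed the threshold for genotype.

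Of 18 genes that the kinase is known to switch on under sugar starvation, 2 fell and 0 rose, where 1.72% of all features were called lower. All 18 had fold changes below 0, on each slide and on both together, and their median was -1.33 against -0.030 over all features. The list was chosen with earlier results of these data known, and it was not tested as a set. The root markers lay the other way, with 11 of 12 above 0 and a median of 0.997, and their part in these values was not tested. The array of each genotype with the highest mean of starvation genes, replicate 4, had the lowest mean of root markers, -3.37 in wild type and -1.58 in the mutant. The other wild type arrays did not keep to this order. Replicate 1 had the lowest starvation mean (1.83), and its root marker mean of -2.04 lay below those of replicates 2 (-1.26) and 3 (-1.77). In the mutant, replicate 3 had the lowest starvation mean (-0.12) and the highest root marker mean (-0.60). Several of the starvation genes are known to vary over the day, so their values depend on the hour of harvest, which the labels do not state. TPS11, a class II trehalose phosphate synthase gene, fell by 1.62 (log2 fold change -1.62, SE 0.31, limma adjusted p = 0.028). Its level was 2.95, 2.71, 3.56 and 3.78 in wild type and 1.51, 1.38, 1.35 and 2.305 in the mutant, without overlap. AT2G33830, a dormancy-associated gene also called DRM2, had -3.17 (SE 0.60, adjusted p = 0.028), a 9.01-fold lower signal. Its level was 3.23, 1.51, 2.27 and 3.53 in wild type and -1.11, -1.21, -0.83 and 0.997 in the mutant, and no mutant array reached the wild type range.

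The 4 genes of the list with the largest estimates had wider spreads, and they are named here after their values were seen. Other dark-inducible genes of the list had smaller estimates, with DIN10 at -1.26, DIN3 at -0.87 and DIN9 at -0.55. ASN1, the dark-inducible asparagine synthetase gene, was at 3.09, 3.17, 3.94 and 4.76 in wild type and at -0.11, -1.33, -1.01 and 3.42 in voz1 voz2. Mutant replicate 4 lay within the wild type range and the other mutant arrays far below it. The fold change of -3.50 (SE 0.99) had a limma adjusted p of 0.082. This became 0.055 with slide as a block and 0.033 under the replicate block. SEN1 had -3.59 and adjusted p = 0.077 (0.034 with that block and 0.038 with slide as a block). BCAT2, a branched-chain amino acid aminotransferase gene, had -4.12 and adjusted p = 0.066 (0.031 under the replicate block and 0.042 with slide as a block), with mutant replicate 4 at 1.83 and the other mutant arrays between -2.99 and -2.21. DIN2, a dark-inducible glycosidase gene, had -3.69 and adjusted p = 0.079, with no overlap between the genotypes. It passed with neither block (0.054 under the replicate block and 0.062 with slide as a block).

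With the replicate number as a block 15 of the 18 starvation genes were called lower, where 6.74% of all features were, and with slide as a block 6 were, where 7.95% were. At an unadjusted p under 0.05 there were 14 of 18, against 23.6% of all features. The count of 2 was 0 when any one of wild type arrays 1, 3 and 4 and mutant arrays 1, 2 and 3 was left out, with the median between -1.57 and -1.05, and 4 without wild type replicate 2. Without mutant replicate 4 it was 7, with a list median of -1.76. Leaving out 1 array also moved the count over all features, from 1091 to between 387 and 1506. Both calls were also lost without the filter (0.056 for TPS11 and 0.052 for AT2G33830), in the deposited values (0.153 and 0.080) and on each slide alone. The genotypes did not overlap in 5 of the 17 measured on every array, against 16.1% of all features.

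**Figure D3:**
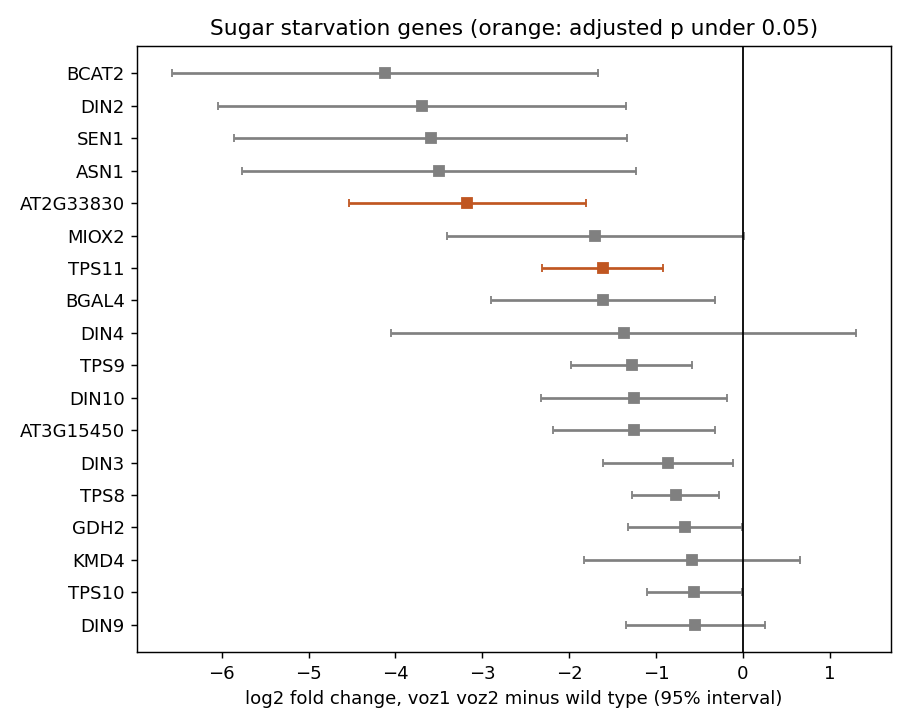
Log2 fold changes of 18 genes known to rise under sugar starvation, voz1 voz2 minus wild type, with 95% intervals from limma over 8 arrays and with AT2G33830 and TPS11, the genes past the threshold, in orange. All 18 estimates lie below 0, from -4.12 for BCAT2 to -0.55 for DIN9.

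AKINBETA1 and the starvation genes are set side by side by array. The mean level of the 17 starvation genes measured on every array was 1.83, 2.13, 2.38 and 3.21 on the wild type arrays 1 to 4 and 0.34, 0.033, -0.12 and 2.02 on the mutant arrays 1 to 4. Mutant replicate 4 had the highest AKINBETA1 level and the highest starvation mean of the mutant arrays, and wild type replicate 4 the highest of both in wild type. The lowest arrays were not shared. AKINBETA1 was lowest on replicate 2 of each genotype, and the starvation mean on wild type replicate 1 and mutant replicate 3. On the starvation mean, mutant replicate 4 lay above wild type replicate 1, so the genotypes overlapped there and not for AKINBETA1. The 8 points share scaling and slides and are given as a description.

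**Figure D4:**
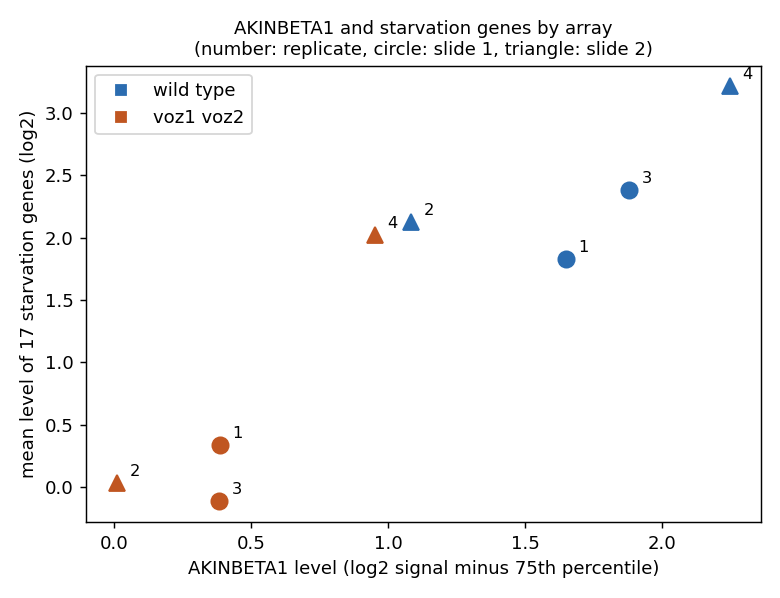
AKINBETA1 level (x axis) and mean level of 17 sugar starvation genes (y axis), both as log2 processed signal minus the array's 75th percentile, one point per array labelled with its replicate number. Wild type arrays (blue) lie at AKINBETA1 levels of 1.08 to 2.25 and mutant arrays (orange) at 0.0099 to 0.95, and mutant replicate 4 is the mutant array nearest to wild type on both axes.

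Among genes that act on the kinase or bind it, SEX4 passed. Of 12 tested regulators and partners (13 listed, SnRK1.3 being well above background on no array) 1 rose and 0 fell, where 2.72% of all features were called higher and 1.72% lower. The median was -0.25, and 4 of the 12 had an unadjusted p under 0.05, against 23.6% of all features. SEX4, a phosphoglucan phosphatase of starch breakdown that was also described as a partner of KIN11, rose by 0.74 (SE 0.14, limma adjusted p = 0.030). It was at 1.66, 1.73, 1.57 and 1.34 in wild type and at 2.16, 2.39, 2.23 and 2.46 in voz1 voz2. The call was lost with median scaling (0.084), with no filter (0.078), in the values as deposited (0.758), on each slide alone (0.214 and 0.234) and without any single array but wild type replicate 2 (0.059 to 0.094). AT1G78020 had 0.74 as well (adjusted p = 0.132), and passed with slide (0.028) and replicate number (0.022) as a block. The gamma-type subunit gene KING1 was at -0.41 (SE 0.19, adjusted p = 0.250). The activating kinase genes GRIK1 and GRIK2 were at -0.32 and -0.090, and TPS1, whose product makes the trehalose 6-phosphate that inhibits the kinase, at -0.38 (adjusted p = 0.192).

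The bZIP factors of groups S1 and C, through which the kinase is known to act on starvation genes, gave no call. Of 9 tested 0 passed in limma, where 4.44% of all features did. At an unadjusted p under 0.05 there were 4 (23.6% of all features), 6 lay below 0 and the median was -0.27. The lowest p belonged to bZIP9 at -1.15 (SE 0.34, adjusted p = 0.091) and bZIP63, a direct substrate of KIN10, at -0.77 (SE 0.23, adjusted p = 0.095). With the replicate number as a block 4 of the 9 were called lower and with slide as a block 2, where 6.74% and 7.95% of all features were, bZIP9 in both (0.027 and 0.024). The levels of bZIP9 were 3.04, 2.01, 3.47 and 3.02 in wild type and 1.95, 1.35, 2.24 and 1.38 in the mutant, overlapping through wild type replicate 2.

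Of 10 transcripts of proteins known as SnRK1 substrates 1 rose and 1 fell, and the other 8 did not pass. Over all features 2.72% were called higher and 1.72% lower, and the median of the 10 was -0.34. TPS5, a class II trehalose phosphate synthase gene, rose by 1.72 (SE 0.23, limma adjusted p = 0.0083), a 3.29-fold change. It was at 0.80, 1.24, 0.74 and 0.13 in wild type and at 2.295, 2.35, 2.68 and 2.47 in the mutant, with a wide gap between the genotypes. Its fold change was 1.72 on each slide and its call was kept without any single array (adjusted p 0.008 to 0.030), while in the values as deposited it was 1.38 with no call (0.356), and neither slide alone gave a call (0.101 and 0.243). TPS11 and TPS5 thus moved in opposite directions within the class II family. HMG1, which encodes an HMG-CoA reductase of isoprenoid synthesis, fell by 0.80 (log2 fold change -0.80, SE 0.18, adjusted p = 0.048). That call was lost with median scaling (0.097), with no filter (0.1004), with robust eBayes (0.0501), in the values as deposited (0.321), on each slide alone (0.244 and 0.266) and without any single array but wild type replicate 2 (0.074 to 0.129).

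The antagonistic TOR pathway and the related SnRK2 kinases, which act in abscisic acid and osmotic signalling, gave no calls. Of 9 TOR pathway genes tested (10 listed, LST8-2 being well above background on no array) 0 passed in limma and 0 had an unadjusted p under 0.05, with a median of -0.10. Over all features 4.44% passed and 23.6% had an unadjusted p under 0.05. TOR itself was at -0.33 (SE 0.17, adjusted p = 0.291) and S6K1 at -0.32 (SE 0.17, adjusted p = 0.307). Of 10 SnRK2 genes 0 passed and 4 had an unadjusted p under 0.05 (23.6% of all features), 5 lying on each side of 0 with a median of -0.018. SnRK2.9 was at 0.88 (SE 0.27, adjusted p = 0.1002) and SnRK2.7 at 0.64 (SE 0.20, adjusted p = 0.101), and with either block 1 SnRK2 gene was called lower, SnRK2.4 at -0.66, where 7.95% (slide) and 6.74% (replicate number) of all features were. All 9 TOR pathway values lay between -0.33 and 0.014.

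**Figure D5:**
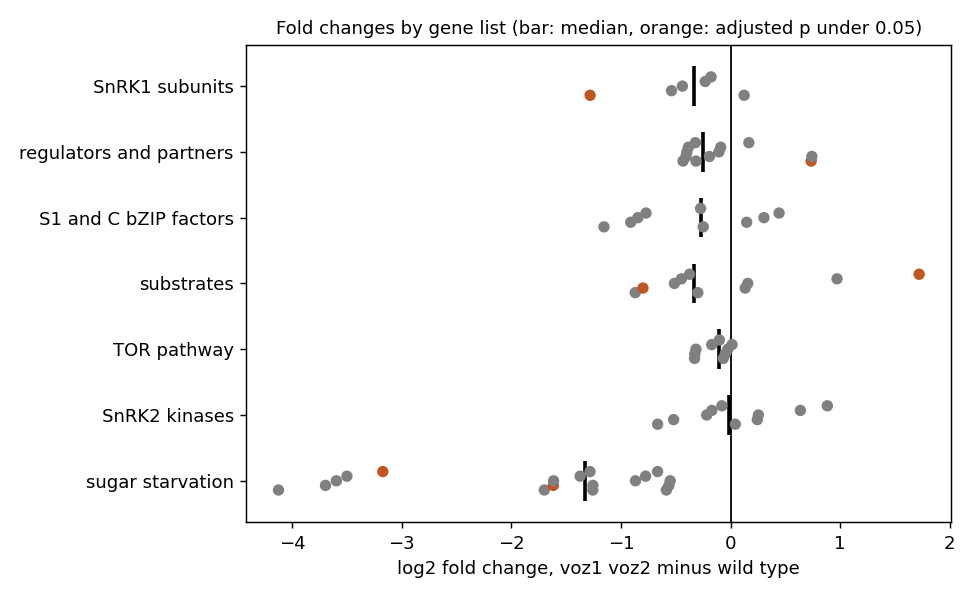
Log2 fold changes, voz1 voz2 minus wild type, of the tested genes of 7 lists, each point a gene, with black bars for list medians and genes past an adjusted p of 0.05 in orange. The starvation genes lie from -4.12 to -0.55, the SnRK1 subunits from -1.28 to 0.12 and the TOR pathway genes close to 0.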

How the data were processed

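Spot intensity was read by Agilent Feature Extraction 9.1.3.1 according to the submitters' processing notes, and the background-subtracted processed signal used here is a column of the authors' scanner output, per the file headers. In the deposited series table the authors gave natural log values. Compared array by array, each equals the processed signal on the natural log scale less 6.42 on wild type or 6.91 on mutant arrays. No source used here gives the reason for these constants, and the table served as an alternative.

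Spots flagged as outliers in the deposited output were dropped, log2 signals of repeated spots averaged, and the 75th percentile of all non-control probes taken off per array. A probe was tested if at least 4 of 8 arrays had it well above background, and the brightest probe stood for its locus. Fold changes, 95% intervals and Benjamini-Hochberg adjusted p-values over all 24599 features come from limma 3.58.1 (lmFit, eBayes) in R 4.3.3, with a threshold of 0.05. The fit was tested on simulated data. Precision is limited by the number of arrays. Symbols came from a RefSeq gene table (TAIR10.1), in which 25449 of 25665 loci were found, and since the array design's build is unknown here no position is printed.

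Sample titles give the genotype and replicate number. Same-numbered arrays, which always shared a slide, deviated together from their genotype means (r over genes 0.32, 0.51, 0.46 and 0.61). Arrays of one slide with other numbers also did (0.27 to 0.54), while arrays of different slides had r of -0.59 to -0.23. The main fit used no pairing, and the replicate number served as a block in an alternative only. Arrays of one genotype correlated at 0.96 to 0.99.

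The subunit genes and the 6 lists (70 genes) were chosen with earlier results of these data known, and no list was tested as a set. Named genes are the subunits, VOZ1 and VOZ2, list members past the threshold or the 2 with the smallest p, and the 2 loci most like each subunit by Pearson's r. KING1, GRIK1, GRIK2, TPS1, SnRK2.4, ASN1, SEN1, BCAT2, DIN2, DIN3, DIN4, DIN9, DIN10, WOX5 and STM were named after their values were seen. Alternatives were median and quantile scaling, normexp (offset 50) on median signals in place of the planned mean signals, the values as deposited, no filter, the mean over probes, array weights, trend and robust eBayes, slide or replicate number as a block, each slide alone and leaving out each array.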

Additional observations from a re-analysis of the deposited data

Results flagged for a closer look

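AKINBETA3 in voz1 voz2 had 1 array apart from the other arrays. Mutant replicate 1 was at -0.29 and the others between -0.49 and -0.46, a gap of 0.831 of the whole range, just above Dixon's 95% critical value for 4 samples. Chance gives such a gap in about 1 in 20 groups, and 12 groups of member levels were looked at. The fold change of AKINBETA3 was not past the threshold with or without that array.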

How the results depend on the processing

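KIN10, KIN11 and AKINBETA3 kept their direction and stayed short of the threshold under all 21 alternatives (fold changes -0.57 to -0.081, -0.78 to -0.30 and -0.52 to -0.063). AKINBETA2 was turned to -0.21 in the values as deposited, whose constants set the genotypes apart by construction, and stayed above 0 elsewhere. AKINBETA1 stayed below 0 throughout and past the threshold in 10 of 21. Its call was lost with median scaling (-1.40), in the values as deposited (-1.62), with no filter (-1.28), on slide 1 alone (-1.38) and slide 2 alone (-1.18). With no filter its SE was 0.30 against 0.29 and more features were adjusted over, and the parts of these were not separated. Leaving out 1 array gave -1.49 to -1.10. SNF4 (-0.54) passed with slide as a block only, and had -0.67 to -0.44 without 1 array. With the replicate number as a block AKINBETA1 (-1.28) was the one subunit gene called and no other subunit call changed. The count of subunit genes called was 2 with slide as a block, 0 with median scaling, in the values as deposited, with no filter and on either slide alone, and 0 to 1 without 1 array. At an unadjusted p under 0.05 there were 2 subunit genes in the deposited values, with median scaling and without the filter, 1 on each slide alone, and 1 to 3 without 1 array. In the main fit 2 of the 6 subunit genes and 23.6% of all features were under that cut. The count of 1091 features became 715 with median scaling, 70 in the values as deposited (30 higher and 40 lower, against 668 and 423), 514 with no filter, 3955 with slide as a block, 3314 with the replicate number as a block, 0 in limma on each slide alone, where 2 arrays of each genotype were fitted and 4486 and 4031 features had an unadjusted p under 0.05, and 387 to 1506 without 1 array. Where no cause is named above, the cause was not tested.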
